A study of Danio rerio with 2 samples.

Results

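Zebrafish genes of glucose and glycogen metabolism were followed in larvae homozygous for lri25 and in wild-type siblings of the same clutches. The members were every gene whose printed symbol matched a fixed name pattern for hexose carriers, enzymes of glycolysis and lactate production, enzymes of gluconeogenesis, and glycogen synthases and phosphorylases. The pattern found 80 of the 33733 genes in the deposited table. Of these, 76 encode carriers or enzymes of the pathway or their direct regulators, and 4 share only the beginning of a name. The lri25 group was 1 library from 20 pooled whole larvae, and the wild-type group was 1 library from 20 pooled whole clutchmates, both of the AB/TL strain at 5 days post fertilisation (dpf). The labels give neither the gene affected by lri25 nor whether the wild-type siblings include heterozygotes.

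Cells take up glucose through carriers of the slc2a family and trap it by phosphorylation. Glycolysis then splits the sugar to pyruvate, which becomes lactate or enters mitochondria. The liver runs several steps in reverse to release glucose (gluconeogenesis), and liver and muscle store it as glycogen. Many steps have a separate gene for each of several tissues, and an ancient genome duplication left teleost fish with a and b copies of many of them. Photoreceptors and brain neurons are heavy users of glucose, which makes the tissue forms of interest in whole larvae.

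Levels are FPKM, fragments scaled to transcript length and library size, so they can be set side by side between genes. Differences are log2((mutant FPKM + 1)/(wild-type FPKM + 1)), a scale that understates differences of genes near 0, and folds are plain ratios of FPKM. A gene was compared when it reached 1 FPKM in at least 1 library, and was counted as higher or lower at a difference of at least 1. Counts of genes at least 2-fold apart always use that scale, so a gene of low level can have a plain ratio above 2 without being counted. With 1 library per genotype there is no spread between samples, so no value has an error, no test was run, and each statement describes these 2 pools. In whole larvae, fewer cells of a type and less RNA per cell cannot be told apart.

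Most glucose and glycogen genes lay close together in the mutant and wild-type libraries. Of the 75 members compared, 3 (4%) were at least 2-fold higher in the mutant, against 6.08% of all 20256 genes compared, and 4 (5.33%) were at least 2-fold lower, against 7.12%. Both shares are near the background, so the counts alone do not set these genes apart. The same shares over all genes compared are the background for every smaller count below. The median difference was -0.11 over the members, with quartiles of -0.37 and 0.30, and -0.01 over all genes compared. Below 0 lay 43 of the 75 members and 10336 of the 20256 genes compared, the background for counts by side of 0. The members held 1.27% of summed FPKM in the mutant and 1.28% in the wild type. The 3 higher genes were gck, gpib and slc2a11b, and the 4 lower genes were slc2a1a, fbp2, pfkfb4 and pfkfb2b.

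The most abundant members all stayed within 2-fold. Of the 19 members above 100 FPKM in at least 1 library, 0 passed in either direction, where 10.4% of 1009 such genes did, 4.46% higher and 5.95% lower. Among 24 members whose larger value lay between 20 and 100 FPKM, 0 were higher and 2 lower, where 9.38% of 3710 genes passed, 4.53% higher and 4.85% lower. The other 5 lay between 5 and 20 FPKM, where 3 of 20 members were higher and 2 lower, against 4.96% and 5.98% of 8039 genes. Of the 12 members between 1 and 5 FPKM, 0 were counted, where 8.27% of 7498 genes were higher and 9.62% lower. By plain ratio, 4 members that were not counted also passed 2-fold, namely eno4, g6pc3 and g6pcb, higher, and PFKFB1 (2 of 2), lower. The remaining 5 members were not compared. Of these, slc2a9l1 and SLC2A13 (1 of 3) were listed at 0 in both libraries, slc2a11a stood at 0.233 FPKM in the mutant and 0.315 FPKM in the wild type, slc2a11l was listed at 0 in the mutant and at 0.756 FPKM in the wild type, and gckr was at 0.640 FPKM in the mutant and listed at 0 in the wild type.

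**Figure D1:**
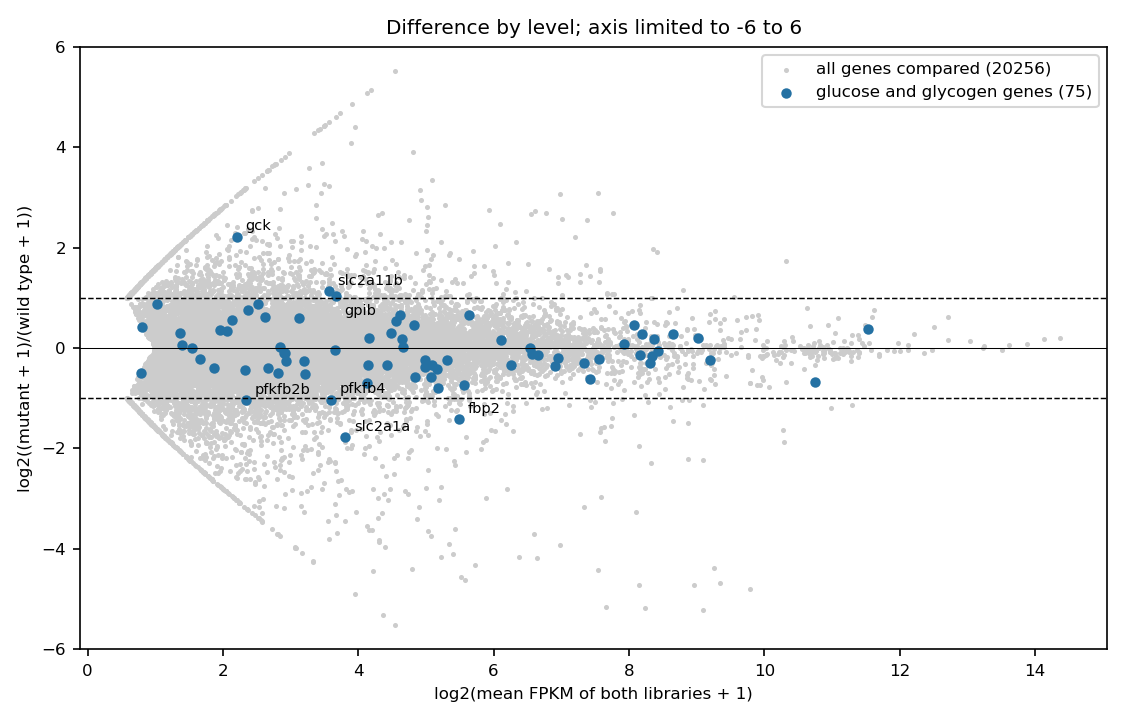
The vertical axis is the log2 difference of mutant over wild type and the horizontal axis log2(mean FPKM of both libraries + 1), with 20256 genes in grey and the 75 glucose and glycogen genes compared in blue. The 7 named genes lie at or beyond the dashed 2-fold lines and the other members lie between them on this scale, and 8 genes fall outside the drawn range of -6 to 6.

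Among the hexose carriers, the Glut1 gene slc2a1a stood apart. Glut1 is the main glucose carrier of the blood-brain barrier in vertebrates, and zebrafish carry it as slc2a1a and slc2a1b. The gene slc2a1a (ENSDARG00000001437, chromosome 23, 22494609 to 22506777, build Zv9) was at 5.33 FPKM in the mutant, against 20.7 FPKM in the wild type, 3.89-fold lower with a difference of -1.78. Its copy slc2a1b was at 29.0 FPKM in the mutant and 36.8 FPKM in the wild type, a difference of -0.33. As a share of the FPKM of this pair, slc2a1a held 15.5% in the mutant, against 36.0% in the wild type, and the gap between the copies in log2 difference, -1.45, was the widest of the 18 duplicated pairs examined. Both copies were lower in the mutant library, by unequal amounts.

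Carriers named for other tissues differed less. The Glut2 gene slc2a2, which serves liver, pancreatic islets and gut in mammals, was at 17.9 FPKM in the mutant and 22.9 FPKM in the wild type. The neuronal Glut3 gene slc2a3a was at 25.6 FPKM in the mutant and 22.4 FPKM in the wild type, and its copy slc2a3b at 1.91 FPKM in both. The fructose carrier type slc2a5 was at 6.61 FPKM in the mutant and 9.88 FPKM in the wild type. None of these 4 reached 2-fold.

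The 1 carrier at least 2-fold higher was slc2a11b (ENSDARG00000063288, chromosome 5, 10922206 to 10953785), whose medaka counterpart is needed for pigment cells. It was at 15.3 FPKM in the mutant, against 6.45 FPKM in the wild type, 2.37-fold higher. The other pigment-linked member in medaka, slc2a15b, stood at 14.6 FPKM in the mutant and 18.8 FPKM in the wild type, so the 2 did not differ in the same direction. Its copy slc2a15a was at 11.5 FPKM in the mutant and 11.7 FPKM in the wild type. The remaining family members slc2a6, slc2a8, slc2a10, slc2a12, slc2a13b and SLC2A13 (3 of 3) lay between -0.40 and 0.76 in log2 difference, with slc2a8 highest at 5.48 FPKM in the mutant and 2.83 FPKM in the wild type. Summed over its 19 genes, the carrier family stood at 150.7 FPKM in the mutant and 171.9 FPKM in the wild type.

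**Figure D2:**
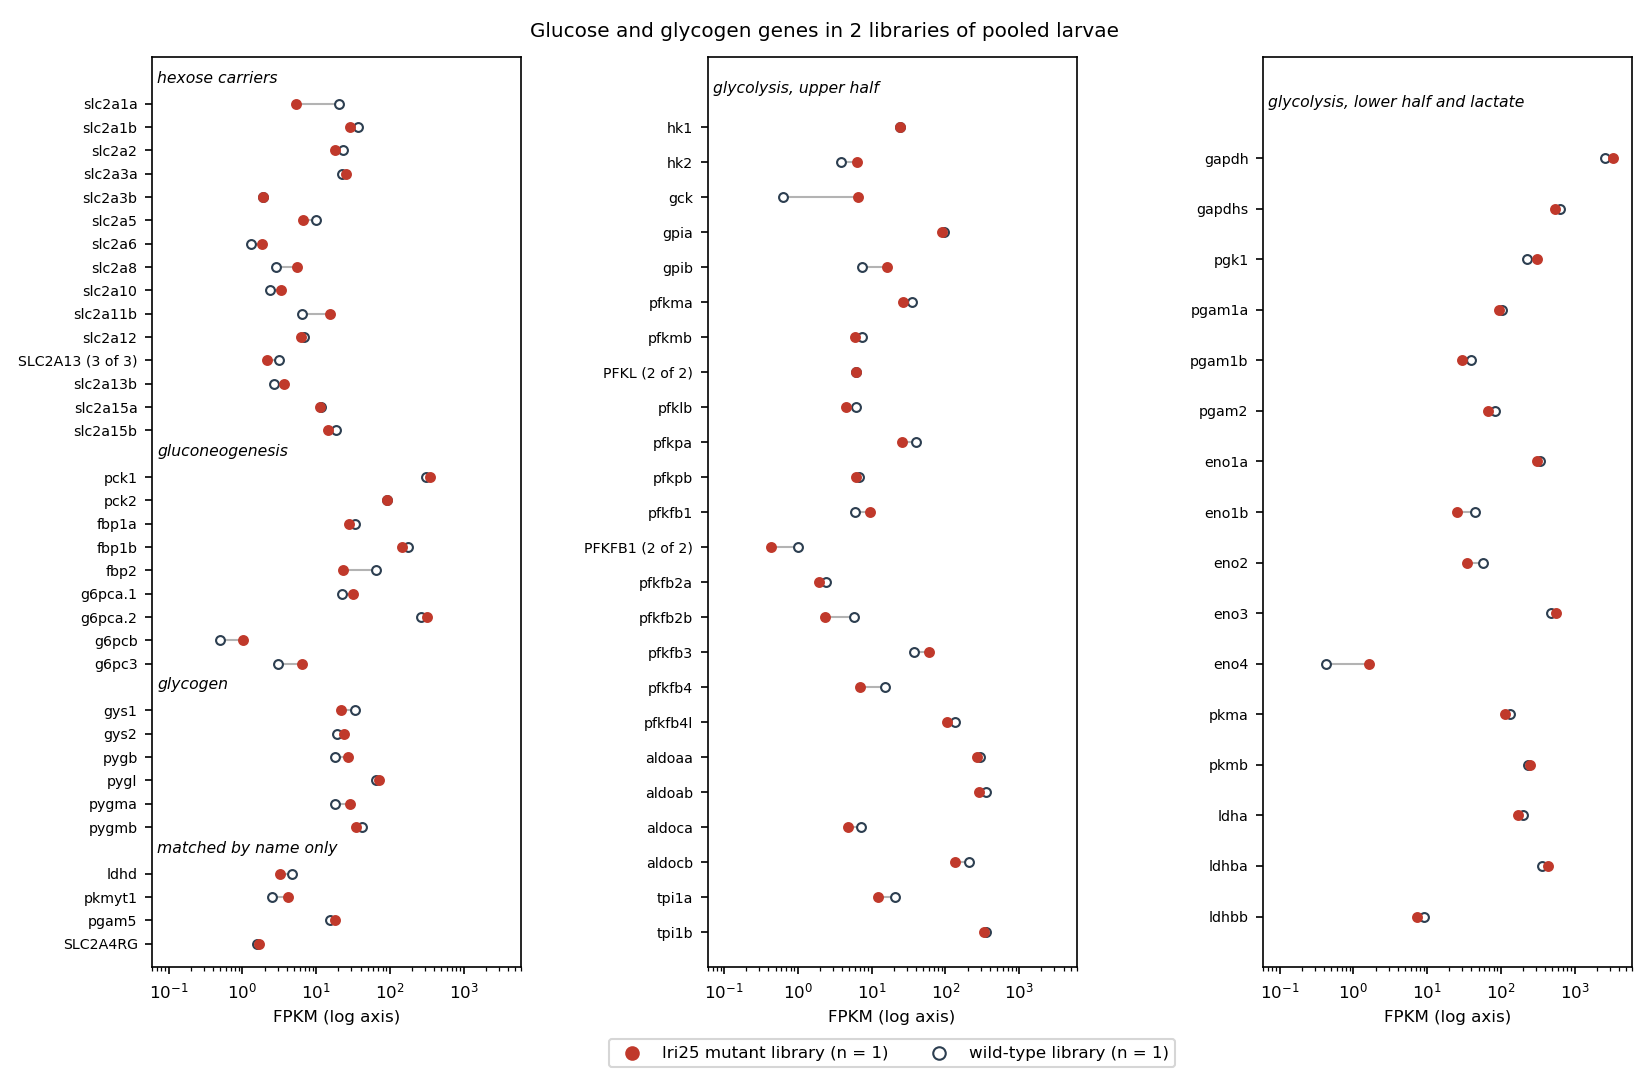
The horizontal axis is FPKM on a log scale and each line is 1 of 74 compared members, grouped by role, with the mutant library filled and the wild-type library open (1 library each). The mutant lies farthest below the wild type at slc2a1a (5.33 FPKM in the mutant, 20.7 FPKM in the wild type) and fbp2, and gck, at 6.59 FPKM in the mutant and 0.626 FPKM in the wild type, has the widest gap above it.

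Glucose is trapped by hexokinases, and all 3 such genes among the members lay at or above the wild-type level. Glucokinase, gck (ENSDARG00000068006, chromosome 8, 42670732 to 42682693), is the low-affinity hexokinase of hepatocytes and islet cells that responds to a rise in glucose after feeding. It was at 6.59 FPKM in the mutant, against 0.626 FPKM in the wild type, a ratio of 10.5 that rests on a wild-type value close to the lowest levels in the table. Its inhibitor gene gckr was listed at 0 in the wild type, as given above, and under 1 FPKM in the mutant. The general hexokinase hk1 was at 24.5 FPKM in the mutant and 24.0 FPKM in the wild type, and hk2, the insulin-responsive form of mammalian muscle, at a shared locus, at 6.43 FPKM in the mutant and 3.82 FPKM in the wild type. Of the hexokinase FPKM, gck held 17.6% in the mutant and 2.20% in the wild type, while hk1 stayed the most abundant form in both.

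Phosphoglucose isomerase links glucose 6-phosphate to fructose 6-phosphate. Its scarcer gene gpib (ENSDARG00000005161, chromosome 13, 51999268 to 52020986) was at 16.2 FPKM in the mutant, against 7.37 FPKM in the wild type, 2.20-fold higher. The abundant copy gpia was at 89.7 FPKM in the mutant and 97.0 FPKM in the wild type, so the sum of the pair was almost level at 105.9 FPKM in the mutant and 104.4 FPKM in the wild type.

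Phosphofructokinase commits sugar to glycolysis, and its forms lay slightly lower or level. The platelet type pfkpa, also the main form of mammalian brain, was at 26.2 FPKM in the mutant and 39.4 FPKM in the wild type. The muscle type pfkma was at 26.7 FPKM in the mutant and 34.8 FPKM in the wild type. The other 4 forms, pfkmb, pfkpb, pfklb and PFKL (2 of 2), lay between 4.46 and 6.24 FPKM in the mutant and between 6.13 and 7.31 FPKM in the wild type, and pfklb has its locus in common with 15 other genes. Summed over its 6 forms, the step stood at 75.8 FPKM in the mutant and 101 FPKM in the wild type, 1.33-fold lower, and the tissue types kept similar shares. Platelet types held 42.8% of it in the mutant and 45.9% in the wild type, and muscle types 43.1% in the mutant and 41.8% in the wild type.

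The pfkfb enzymes make and break fructose 2,6-bisphosphate, the strongest activator of phosphofructokinase, and they differed in both directions. The pfkfb4 gene (ENSDARG00000055540, chromosome 11, 35394829 to 35414561) was at 6.96 FPKM in the mutant, against 15.2 FPKM in the wild type, 2.19-fold lower. The pfkfb2b gene was at 2.33 FPKM in the mutant and 5.83 FPKM in the wild type, 2.51-fold lower. Both lay just past the 2-fold line, with differences of -1.03 and -1.04. The form with the strongest kinase activity in mammals, pfkfb3, stood on the other side at 59.7 FPKM in the mutant and 37.3 FPKM in the wild type, a difference of 0.66 that is short of 2-fold. The most abundant form, pfkfb4l, was at 103.7 FPKM in the mutant and 133.7 FPKM in the wild type. As a share of the 7 genes, pfkfb3 held 32.3% in the mutant and 18.5% in the wild type. The remaining pfkfb1, PFKFB1 (2 of 2) and pfkfb2a lay between -0.50 and 0.60.

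Aldolase splits the sugar after phosphofructokinase, and its muscle and brain types were lower in the mutant library, none by 2-fold. The brain type aldocb was at 134.9 FPKM in the mutant and 206.1 FPKM in the wild type, and its scarce copy aldoca at 4.83 FPKM in the mutant and 7.24 FPKM in the wild type. The muscle types differed least, with aldoaa at 271.3 FPKM in the mutant and 297.3 FPKM in the wild type, and aldoab at 283.6 FPKM in the mutant and 350.6 FPKM in the wild type. Among these 4 genes the brain types lay farther below the wild type than the muscle types. Triosephosphate isomerase, which interconverts the products of that split, was carried by tpi1b, at a shared locus, at 336.2 FPKM in the mutant and 350.2 FPKM in the wild type, with tpi1a at 12.4 FPKM in the mutant and 20.6 FPKM in the wild type.

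The lower part of glycolysis, where ATP is gained, had 0 of 16 genes counted as 2-fold apart on the log2(FPKM + 1) scale, although the plain ratio of the scarce eno4 was 3.82. The most abundant member, gapdh (ENSDARG00000043457, chromosome 16, 19254364 to 19261820), was at 3339 FPKM in the mutant and 2557 FPKM in the wild type, 1.31-fold higher. The other GAPDH gene, gapdhs, was at 539.0 FPKM in the mutant and 635.0 FPKM in the wild type, so the 2 genes lay on opposite sides and gapdhs held 13.9% of the step in the mutant and 19.9% in the wild type. Phosphoglycerate kinase, pgk1, was at 311.8 FPKM in the mutant and 228.1 FPKM in the wild type, 1.37-fold higher.

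The mutases, which follow, were all lower by small amounts. The general types pgam1a and pgam1b were at 94.4 and 29.5 FPKM in the mutant, against 104.6 and 40.0 FPKM in the wild type. The muscle type pgam2, at a locus shared with 4 other genes, was at 66.2 FPKM in the mutant and 84.4 FPKM in the wild type.

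Enolase forms lay on both sides of the wild type. The general type eno1b, at a difference of -0.80, lay farther below it than the neuron type eno2, at -0.73. The muscle type eno3 was at 555.4 FPKM in the mutant and 481.4 FPKM in the wild type, and held 60.2% of the step in the mutant, against 51.9% in the wild type. The neuron type eno2 (chromosome 19, 5697121 to 5716821, a locus shared with 1 other gene) was at 34.6 FPKM in the mutant and 58.1 FPKM in the wild type, 1.68-fold lower. The general types eno1a and eno1b, the second at a shared locus, were at 305.1 and 25.5 FPKM in the mutant, against 342.9 and 45.1 FPKM in the wild type. The sum over the 5 enolase genes was 922.3 FPKM in the mutant and 927.9 FPKM in the wild type. The total was thus almost level while the shares of the forms differed, and the part of tissue content in this was not tested. The enolase-like eno4, which mouse sperm need, was at 1.63 FPKM in the mutant and 0.426 FPKM in the wild type.

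At the end of the pathway, pyruvate kinase and lactate dehydrogenase also kept level totals. The pyruvate kinase gene pkmb, at a locus shared with 8 other genes, was at 247.9 FPKM in the mutant and 235.0 FPKM in the wild type, and pkma at 113.9 FPKM in the mutant and 131.4 FPKM in the wild type. The A subunit of lactate dehydrogenase favours lactate production and the B subunit prevails in heart and other oxidative tissue. The ldha gene was at 172.2 FPKM in the mutant and 201.3 FPKM in the wild type, and ldhba at 438.4 FPKM in the mutant and 361.1 FPKM in the wild type, with the second B copy ldhbb at 7.30 FPKM in the mutant and 8.98 FPKM in the wild type. The B genes held 72.1% of the step in the mutant and 64.8% in the wild type.

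**Figure D3:**
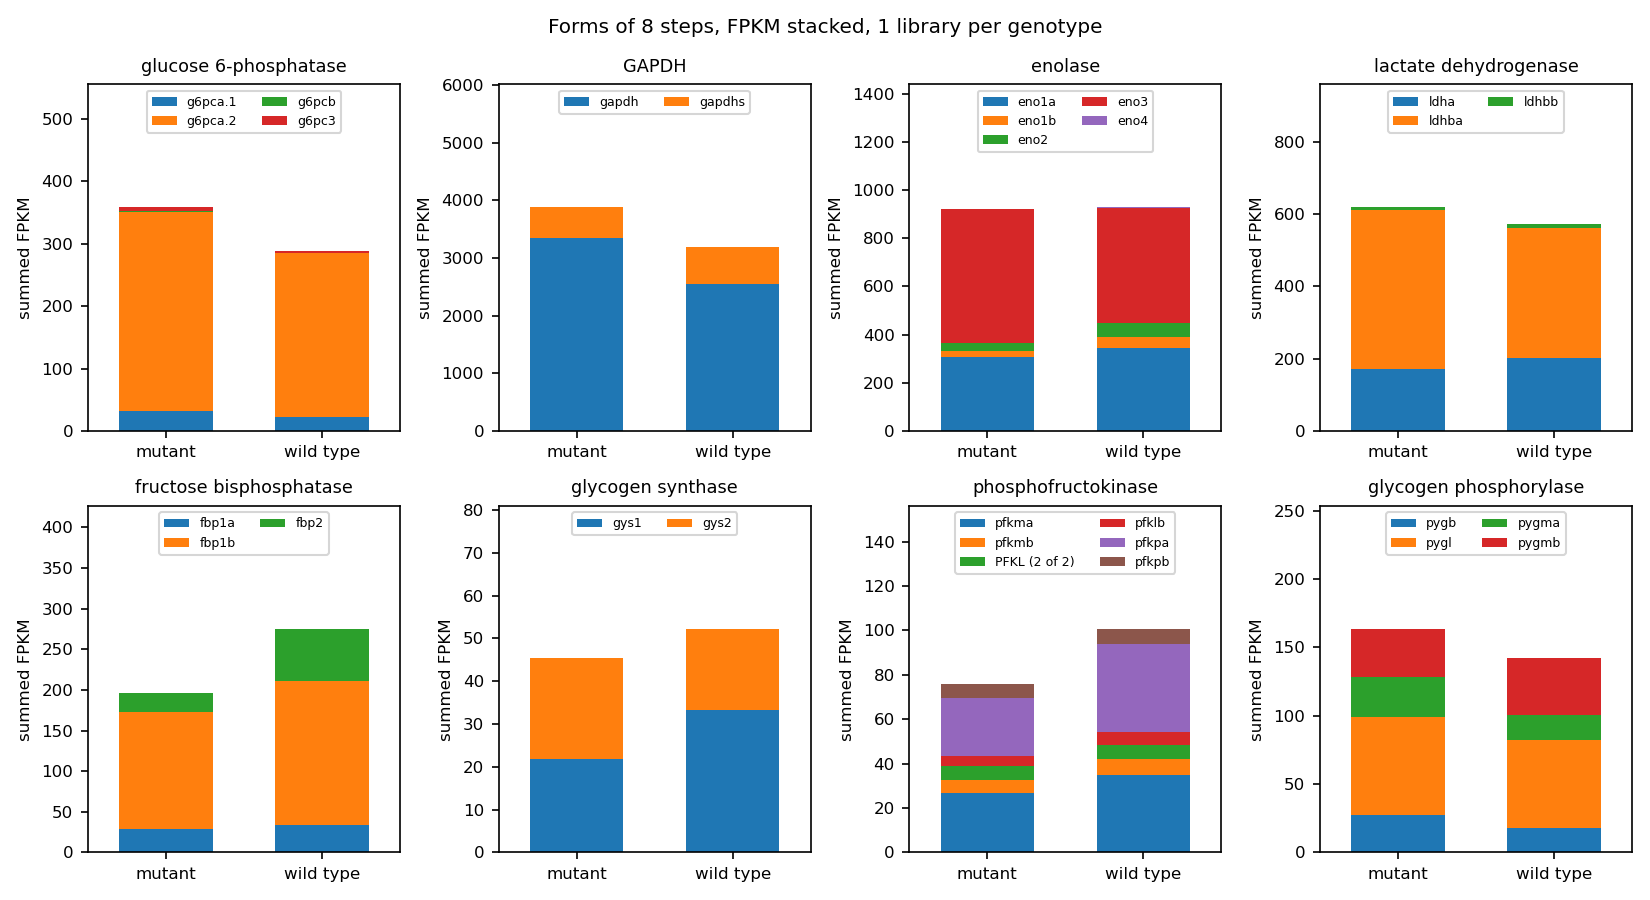
Bars are the summed FPKM of 8 steps in the mutant and wild-type libraries (1 each), stacked by gene, on axes that start at 0. The enolase stacks reach 922.3 FPKM in the mutant and 927.9 FPKM in the wild type, with a larger eno3 part in the mutant, and the phosphofructokinase stacks reach 75.8 FPKM in the mutant and 101 FPKM in the wild type.

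Gluconeogenesis had no common direction. Its first committed enzyme, PEP carboxykinase, was close in both libraries: the cytosolic pck1 was at 351.8 FPKM in the mutant and 309.3 FPKM in the wild type, and the mitochondrial pck2 at 91.4 FPKM in the mutant and 91.7 FPKM in the wild type. Glucose 6-phosphatase, which frees glucose for the blood, was higher in all 4 of its genes without reaching 2-fold on the log2(FPKM + 1) scale. The main gene g6pca.2 was at 319.0 FPKM in the mutant and 262.4 FPKM in the wild type, and its neighbour g6pca.1 at 31.7 FPKM in the mutant and 22.8 FPKM in the wild type. The general form g6pc3 was at 6.43 FPKM in the mutant and 3.07 FPKM in the wild type, and g6pcb at 1.01 FPKM in the mutant and 0.493 FPKM in the wild type.

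Fructose bisphosphatase, the step between them, was lower in all 3 genes. The muscle type fbp2 (ENSDARG00000012366, chromosome 5, 46431503 to 46462320) was at 23.4 FPKM in the mutant, against 64.4 FPKM in the wild type, 2.75-fold lower. The table gives 3 genes the locus of fbp2, and the liver type fbp1a is among them. Reads of the related neighbours fbp2 and fbp1a may have been divided between them, and the fbp2 value is uncertain. The fbp1a gene was at 28.2 FPKM in the mutant and 33.4 FPKM in the wild type, and the main liver type fbp1b, also at a shared locus, at 144.9 FPKM in the mutant and 177.3 FPKM in the wild type. The 3 genes together stood at 196.6 FPKM in the mutant and 275.1 FPKM in the wild type, 1.40-fold lower.

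Glycogen synthase and phosphorylase, which build and break the store, had 0 of 6 genes at least 2-fold apart, against 13.2% of all genes compared. The synthases lay on opposite sides: the muscle type gys1, at a shared locus, was at 21.8 FPKM in the mutant and 33.2 FPKM in the wild type, and the liver type gys2 at 23.6 FPKM in the mutant and 19.0 FPKM in the wild type. Thus gys2 held 51.9% of the synthase FPKM in the mutant and 36.4% in the wild type. Of the phosphorylases, the liver type pygl was at 72.0 FPKM in the mutant and 64.3 FPKM in the wild type. The brain type pygb, at a shared locus, was at 27.0 FPKM in the mutant and 18.2 FPKM in the wild type. The muscle copies diverged, with pygma at 29.1 FPKM in the mutant and 18.03 FPKM in the wild type, and pygmb at 35.2 FPKM in the mutant and 41.8 FPKM in the wild type. The 2 muscle genes therefore came closer to each other in level in the mutant library.

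Sorted into lists of tissue forms, mostly by the tissue in which the mammalian counterpart is best known, the forms showed small medians. The brain and retina list also held gapdhs, pkmb and hk1, which are not described above as brain or retina forms. Likewise, the muscle list held ldha and pkma, which are not described above as muscle forms. The 13 brain and retina forms had a median of -0.24, with 1 at least 2-fold lower (slc2a1a), 0 higher and 8 below 0. That median was the gapdhs value. Most of the summed level came from gapdhs, at 539.0 FPKM in the mutant and 635.0 FPKM in the wild type, and from pkmb. The pkmb gene was at 247.9 FPKM in the mutant and 235.0 FPKM in the wild type. Neither the median nor the sum therefore describes brain and retina forms alone. The summed level of the 13 forms was 1107 FPKM in the mutant and 1312 FPKM in the wild type. Beside them, 6 of 6 photoreceptor markers compared were at least 2-fold lower, with a summed level of 130.4 FPKM in the mutant and 4055 FPKM in the wild type. All 6 neuron markers compared lay below 0, 1 of them at least 2-fold lower, with a summed level of 585.9 FPKM in the mutant and 854.2 FPKM in the wild type. Of the markers listed for these cells, gap43 was at 0 in both libraries. The part of photoreceptor and neuron content in the values of the glucose genes was not tested.

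The 14 liver forms compared had a median of 0.17, with 1 at least 2-fold higher (gck), 0 lower and 8 above 0. The shares over all genes compared were 6.08% higher and 7.12% lower. All 7 hepatocyte markers lay above 0. At least 2-fold higher were 3 of them, fga, fgb and cp, while fabp10a, tfa, serpina1 and apoa2 did not pass. The 7 summed to 11014 FPKM in the mutant and 7114 FPKM in the wild type. Most of that sum was apoa2, at 8128 FPKM in the mutant and 5318 FPKM in the wild type. The liver forms divided: gck, pfkfb1, g6pca.1, g6pca.2, g6pcb, gys2, pck1 and pygl were above 0, while fbp1a, fbp1b, slc2a2, pfklb and PFKFB1 (2 of 2) were among those below 0. In mammals slc2a2 is also active in gut. Enterocyte markers were lower for 5 of 6 rows, 2 of them at least 2-fold, with a summed level of 1120 FPKM in the mutant and 1508 FPKM in the wild type, and none was at 0. These rows were fabp2, vil1 and several apoa4 copies, so they are not 6 separate markers. The row printed as apoa4 was the 1 above 0, at 545.4 FPKM in the mutant and 455.4 FPKM in the wild type. Exocrine pancreas markers, from a neighbouring gland, were at least 2-fold lower for 4 of 5 rows and summed to 1184 FPKM in the mutant and 4034 FPKM in the wild type. The part of liver, gut and pancreas content in these values was not tested.

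The 13 muscle forms had a median of -0.24, with 1 at least 2-fold lower (fbp2), 0 higher and 10 below 0. Fast muscle markers lay on the other side, 6 of 8 above 0 with a median of 0.17, none at least 2-fold apart and none at 0, and summed to 43856 FPKM in the mutant and 38689 FPKM in the wild type. Of the forms, eno3, hk2 and pygma, at 0.21, 0.62 and 0.66, lay on the same side of 0 as the marker median, and pfkma, aldoab, pgam2 and gys1, between -0.59 and -0.30, were among the 10 on the other. Markers of red blood cells and skin had medians of 0.21 and 0.26, with 0 of 4 and 0 of 3 at least 2-fold apart.

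**Figure D4:**
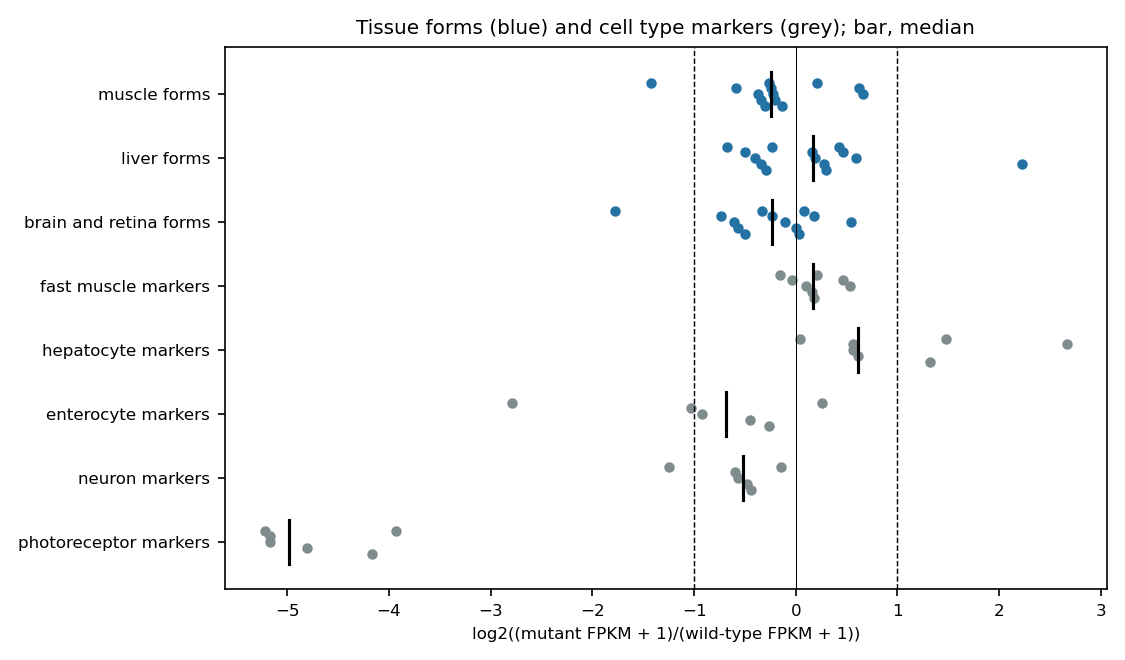
Each point is 1 gene at its log2 difference of mutant over wild type, with tissue forms of glucose and glycogen genes in blue, cell type markers in grey, and a bar at each median. The medians of the tissue forms lie between -0.24 and 0.17, while the photoreceptor markers centre on -4.99.

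In 18 duplicated pairs, both copies lay below 0 in 11, above 0 in 2 and on opposite sides in 5. Pairs were not counted over all genes, so the pair counts have no background and do not set these pairs apart. In 3 of these 18 pairs the copies differed by more than 1 log2 unit in their difference: slc2a1a with slc2a1b, slc2a11a with slc2a11b, and gpib with gpia. The 18 left out some related rows, namely pfkfb1 with PFKFB1 (2 of 2), pfklb with PFKL (2 of 2), and pfkfb4 with pfkfb4l. Of these, pfkfb1 had a difference of 0.60 and the scarce PFKFB1 (2 of 2) of -0.50, so they lay on opposite sides and also more than 1 log2 unit apart. The slc2a11 pair rests on a copy under 1 FPKM in both libraries. Copies of 1 gene can share reads, and the sources used here do not say how such reads were assigned.

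**Figure D5:**
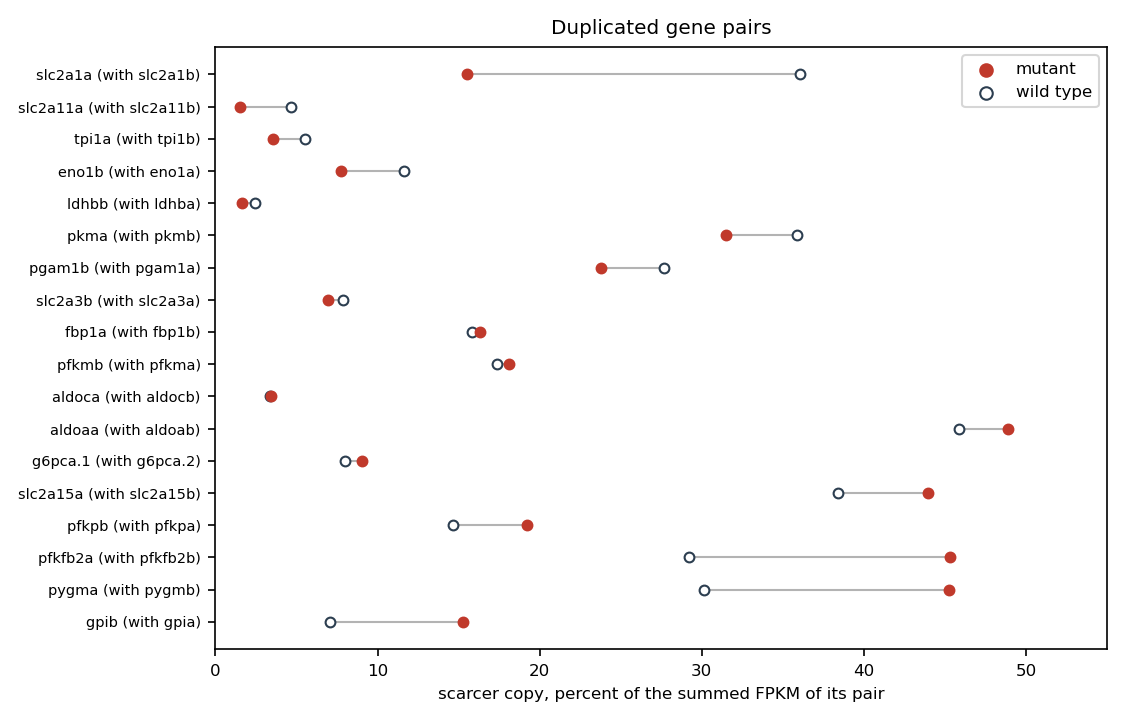
The horizontal axis is the percent of a pair's summed FPKM held by its scarcer copy, in the mutant (filled) and wild-type (open) library. The share of slc2a1a is 15.5% in the mutant and 36.0% in the wild type, and that of gpib is 15.3% in the mutant and 7.06% in the wild type.

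Genes around the pathway were described from lists of neighbours that are not members. In the pentose phosphate pathway, which makes NADPH and ribose, 1 of 9 genes compared was at least 2-fold higher and 0 lower, with a median of 0.14. That gene, h6pd, works in the endoplasmic reticulum and was at 22.7 FPKM in the mutant and 7.90 FPKM in the wild type. The transketolase genes differed in sign, with tktb at 156.4 FPKM in the mutant and 108.1 FPKM in the wild type, and TKT, at a shared locus, at 14.2 FPKM in the mutant and 24.5 FPKM in the wild type.

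Entry of pyruvate into mitochondria had 1 of 16 genes at least 2-fold apart and a median of 0.01. That gene was pdha1b (chromosome 24, 24881397 to 24889754), a copy of the E1 alpha subunit of pyruvate dehydrogenase, at 0.814 FPKM in the mutant and 7.63 FPKM in the wild type. Its abundant copy pdha1a was at 146.5 FPKM in the mutant and 150.3 FPKM in the wild type. Elsewhere in that list the carrier row MPC2 (2 of 2) was at 35.3 FPKM in the mutant and 24.2 FPKM in the wild type. The kinases that switch the enzyme off were close, with pdk4 at 16.7 FPKM in the mutant and 20.9 FPKM in the wild type, and pdk3a at 8.38 FPKM in the mutant and 6.36 FPKM in the wild type.

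The citrate cycle had 0 of 21 genes at least 2-fold apart and a median of -0.04. Its extremes were idh3g, a subunit of isocitrate dehydrogenase, at 56.6 FPKM in the mutant and 33.7 FPKM in the wild type, and mdh1aa, a cytosolic malate dehydrogenase, at 370.7 FPKM in the mutant and 481.8 FPKM in the wild type. The next were aco1 at 10.5 FPKM in the mutant and 7.14 FPKM in the wild type, and citrate synthase cs, at a shared locus, at 77.9 FPKM in the mutant and 91.4 FPKM in the wild type.

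Among other genes that handle glycogen, 1 of 20 was counted as at least 2-fold higher on the log2(FPKM + 1) scale and 1 lower, with a median of -0.11. The lower gene was gyg1b, a glycogenin that primes new glycogen, at 14.0 FPKM in the mutant and 49.1 FPKM in the wild type, at a locus shared with 2 other genes. Its copy gyg1a was at 35.8 FPKM in the mutant and 40.7 FPKM in the wild type. The higher gene, ppp1r3b, encodes a subunit that brings protein phosphatase 1 to glycogen in liver, and was at 12.3 FPKM in the mutant and 5.49 FPKM in the wild type. The debranching enzyme copy aglb was at 3.50 FPKM in the mutant and 7.53 FPKM in the wild type, a plain ratio 2.15-fold lower that was not counted, and pgm2 at 21.1 FPKM in the mutant and 16.2 FPKM in the wild type. The scarce pgm5 was at 0.194 FPKM in the mutant and 1.28 FPKM in the wild type, with a difference of -0.93 that was likewise not counted.

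For fructose, galactose and sorbitol, 1 of 10 genes was at least 2-fold higher and 0 lower, with a median of 0.22. Galactokinase, galk1, was at 6.22 FPKM in the mutant and 2.20 FPKM in the wild type. The sorbitol pathway enzymes stood on opposite sides, with sord at 27.4 FPKM in the mutant and 17.5 FPKM in the wild type, and the aldose reductase akr1b1 at 43.7 FPKM in the mutant and 57.1 FPKM in the wild type. The mannose phosphate isomerase mpi, at a shared locus, was at 4.04 FPKM in the mutant and 5.81 FPKM in the wild type.

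Lactate leaves and enters cells through monocarboxylate carriers. Of 5 genes compared, 1 was at least 2-fold higher and 1 lower, with a median of -0.68 that rests on this small number. The exporter slc16a3 was at 18.8 FPKM in the mutant and 30.7 FPKM in the wild type, its second row SLC16A3 (1 of 2) at 0.547 FPKM in the mutant and 2.51 FPKM in the wild type, and slc16a7 at 3.51 FPKM in the mutant and 6.31 FPKM in the wild type. The carrier slc16a8, known from the retinal pigment epithelium of mammals, was at 4.48 FPKM in the mutant and 0.335 FPKM in the wild type, at a shared locus. Their partner protein basigin, bsg, was at 330.3 FPKM in the mutant and 316.9 FPKM in the wild type.

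Hormones and regulators of glucose had 0 of 25 genes counted as 2-fold apart on the log2(FPKM + 1) scale and a median of 0.00. The glucagon gene gcga, at a shared locus, came closest at 49.8 FPKM in the mutant and 24.5 FPKM in the wild type, a difference of 0.99 and a plain ratio of 2.03. The insulin gene ins was at 68.1 FPKM in the mutant and 101.5 FPKM in the wild type, so ins and gcga lay on opposite sides. The second glucagon gene gcgb, also at a shared locus, was almost level at 15.1 FPKM in the mutant and 14.4 FPKM in the wild type. The txnipa gene, an arrestin-like protein that curbs glucose uptake, was at 367.1 FPKM in the mutant and 203.4 FPKM in the wild type. On the other side, the coactivator gene ppargc1a was at 3.90 FPKM in the mutant and 7.13 FPKM in the wild type, and foxo3a at 14.9 FPKM in the mutant and 22.7 FPKM in the wild type.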

How the data were processed

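RNA of 20 pooled whole larvae was sequenced per genotype, 1 library each. CASAVA, Bowtie and build Zv9 are listed in the submitters' processing notes, without versions. The authors deposited 1 table with a value column per library, taken here as FPKM from the column layout, and the authors' p-values and q-values, which compare 2 libraries and not genotypes. No source used here names the program behind them, and the columns were assigned by their wild-type and mutant codes. The second identifier column was used, and starts, counted from 0 in the table (4 of 4 mitochondrial genes fitted), were raised by 1. Gene levels come from both libraries as deposited, with pandas 2.3.3 in Python 3.11.15. Total fragments are unknown. Among 510 genes above 0 and under 0.5 FPKM in both libraries, 206 had a ratio of mutant to wild type between 0.7 and 0.83, so such values rest on few fragments. Of the table's genes 8287, and of the 80 members 15, share a locus with another gene.

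Members and lists were chosen with earlier results of these data known. Named in full are members at 20 FPKM or more in at least 1 library, members at least 2-fold apart and their sister forms. From neighbour lists, the 2 highest and 2 lowest genes at 5 FPKM or more and any 2-fold apart are named. The genes pdha1a, gyg1a, ins, gcgb, pgm5 and the list of liver forms with their signs were named after their values were seen. Alternatives covered the pseudocount, the floor, values at 0, shared loci and scaling. A few genes of these lists are not reported here.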

Additional observations from a re-analysis of the deposited data

How the results depend on the processing

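No paired analysis was possible because each genotype had 1 library, and for the same reason no library could be left out. Of the 75 members, the number at least 2-fold higher was 5 with a pseudocount of 0.1 FPKM and 1 with a pseudocount of 5 FPKM, against 3 as reported. The number at least 2-fold lower was 2 with a pseudocount of 5 FPKM, against 4 as reported. With 0.1 FPKM, eno4, g6pc3 and PFKFB1 (2 of 2) passed as well, and with 5 FPKM gck, slc2a1a and fbp2 were those left. Counts over all 20256 genes compared moved likewise, to 1866 higher and 2219 lower with 0.1 FPKM and to 296 higher and 361 lower with 5 FPKM. A floor of 5 FPKM left fewer genes to compare, with 612 higher and 721 lower. Leaving out genes listed at 0 also left fewer, with 797 higher and 1049 lower. Medians of the members and of the tissue forms kept their sign under every alternative run. The member median lay between -0.15 and -0.10, and the median of the liver forms between 0.14 and 0.28. Medians of 3 neighbour lists crossed 0 while staying near it: pyruvate entry (-0.04) and hormones (-0.08) with a floor of 5 FPKM, and glycogen handling (0.03) and hormones (-0.08) without shared loci. Rescaling the mutant to a median of 0 turned the sign of pck2 alone. Among alternatives chosen after seeing the data, the brain and retina median was -0.17 without slc2a1a. Depth limits genes near 1 FPKM, such as gck in the wild type.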

Other observations

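In the authors' deposited table, 0 of the 65 members tested there carried the mark of a significant difference between the 2 libraries, against 68 of 14613 genes. The member with the lowest q-value there, slc2a1a, was not marked either. These marks and q-values compare 2 libraries.

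The name pattern also caught 4 genes outside the pathway. They were pkmyt1, a kinase that holds back entry into mitosis, at 4.21 FPKM in the mutant and 2.55 FPKM in the wild type, and pgam5, a mitochondrial phosphatase, at 18.05 FPKM in the mutant and 15.6 FPKM in the wild type. The D-lactate dehydrogenase ldhd was at 3.27 FPKM in the mutant and 4.77 FPKM in the wild type, and the transcription factor row SLC2A4RG at 1.69 FPKM in the mutant and 1.58 FPKM in the wild type. None was 2-fold apart. The pattern missed 1 gene that the table prints under a clone name and that a table of zebrafish gene symbols pairs with the liver and red cell pyruvate kinase pklr (ENSDARG00000042010). It was at 74.5 FPKM in the mutant and 80.8 FPKM in the wild type.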
